A study of Macaca fascicularis with 4 samples.

Results

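The 8 genes described here encode enzymes that take apart aromatic and other amino acids: TAT, TDO2, HPD, HGD, FAH, HAL, SDS and AGXT. They were taken by name from the gene counts of the cynomolgus monkey (Macaca fascicularis), and all 8 were found among the 13982 genes that the files name. The data came from 4 libraries, 1 each of liver, muscle, oWAT and sWAT, in which whole cDNA molecules were read on a PacBio Sequel II instrument to describe transcripts of different tissues. RNA of 5 monkeys was pooled per tissue, so the spread between animals cannot be seen, no group has a replicate and no p-value was computed. WAT commonly stands for white adipose tissue; which depots the letters o and s name is not spelled out in the labels, which also state no treatment, age or sex. The deposited tables of the fat libraries are named eWAT and iWAT in place of oWAT and sWAT; the sample labels were followed, so every oWAT and sWAT value rests on them.

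Amino acids that are not built into protein are stripped of their amino group and their carbon skeletons are passed to energy or glucose metabolism, a task in which the liver takes the leading part. Tyrosine is broken down in a fixed chain: TAT removes the amino group, HPD makes homogentisate, HGD opens its ring, GSTZ1 isomerizes the product and FAH splits it into fumarate and acetoacetate. TDO2 opens the ring of tryptophan at the entry to the kynurenine pathway, HAL removes ammonia from histidine, SDS removes ammonia from serine, and AGXT transfers an amino group to glyoxylate in the peroxisome. In humans, loss of HGD causes alkaptonuria, loss of FAH causes tyrosinaemia, loss of HAL causes histidinaemia and loss of AGXT causes primary hyperoxaluria.

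The gene counts totalled 437587 in liver, 396797 in oWAT, 383896 in sWAT and 439872 in muscle. Levels are given as CPM, counts scaled to the library total, with exact 95% Clopper-Pearson intervals, which cover counting error only. For ratios, 3 counts could stand in for a count of 0, a level of 7.56 CPM in oWAT, 7.81 in sWAT and 6.82 in muscle. A count of 0 allows more than this, with exact upper bounds of 9.30 CPM in oWAT, 9.61 in sWAT and 8.39 in muscle. The labelled tissues were checked by marker genes listed for each. The 12 hepatocyte markers summed to 84519 counts in liver, against 6 in oWAT, 1 in sWAT and 1 in muscle. The 10 muscle fibre markers summed to 63635 counts in muscle and to between 52 and 59 in the other libraries. The 8 adipocyte markers summed to 3430 counts in oWAT, 3646 in sWAT, 306 in muscle and 25 in liver.

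The 8 enzymes stood highest in liver, and they fell into a group without signal elsewhere and a pair with signal in fat. Together they had 1268 counts in liver (2898 CPM, 2741 to 3061), against 33 in oWAT (83.2 CPM), 20 in sWAT (52.1 CPM) and 5 in muscle (11.4 CPM). Of the 58 counts outside liver, FAH and HAL held 57. The other 6 enzymes had 1140 counts in liver, against 1 in oWAT, 0 in sWAT and 0 in muscle. In bulk tissue, fewer cells that make a transcript and less of it per cell cannot be told apart.

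**Figure D1:**
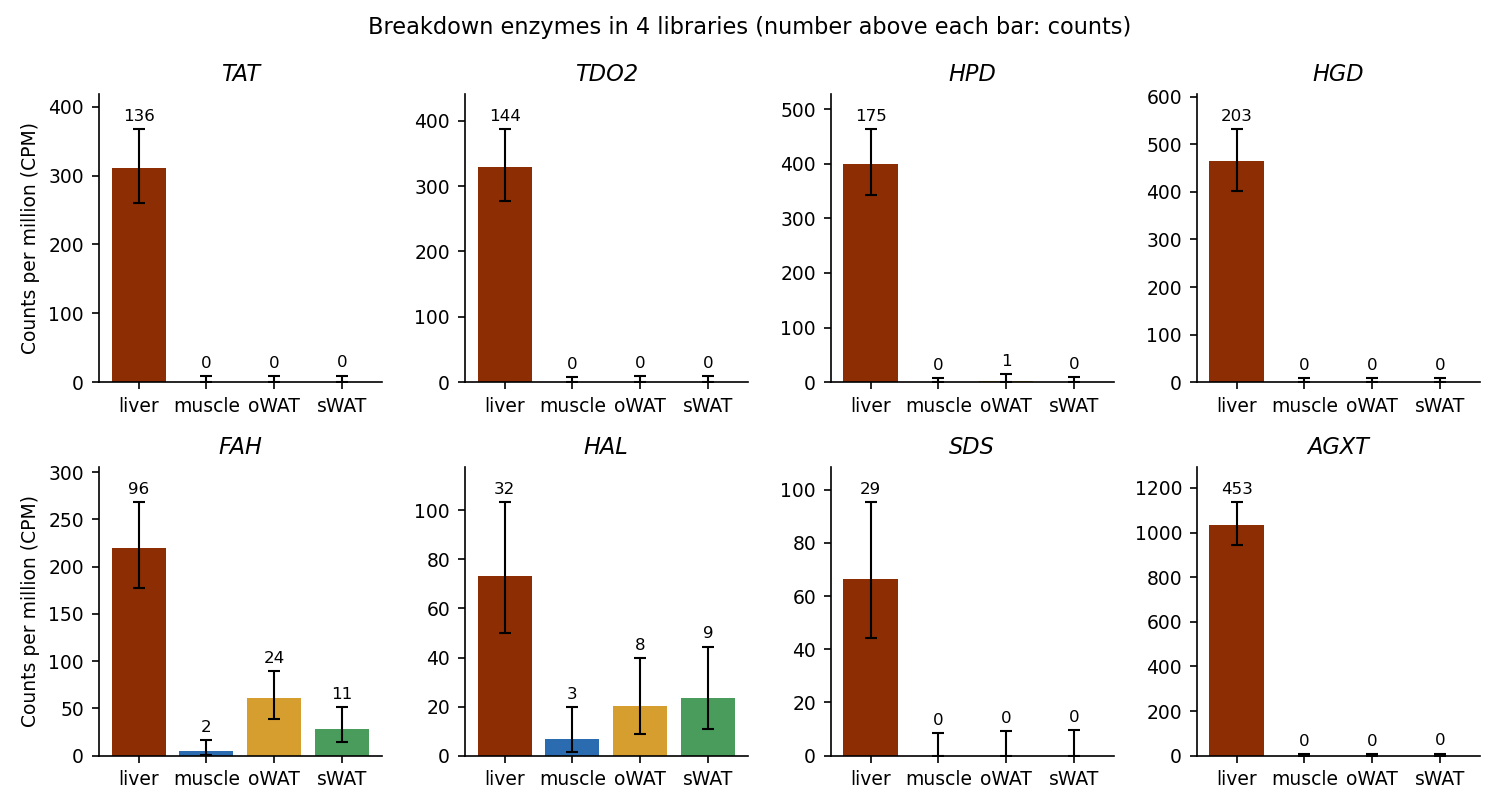
Level of each enzyme in CPM (vertical axes, each starting at 0 and scaled to its gene) in liver, muscle, oWAT and sWAT; bars are the single library of each tissue, whiskers are exact 95% intervals of counting error, and the number above each bar is the count. FAH and HAL have counts in all 4 libraries, while the other 6 have 1 count in all outside liver.

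A gene was called higher in liver where it had at least 10 liver counts and the exact 95% interval of the ratio of CPM lay above 2 against each of the other 3 libraries. By this rule 7 of the 8 enzymes were called, and HAL was not. Over all genes, 533 of the 4944 with at least 10 liver counts were called, or 10.8%. All 8 enzymes had at least 10 liver counts. Counts of 0 in each of the other 3 libraries were found for 5 of the 8 enzymes and for 4.05% of the 4944 genes. No enzyme was called higher in another library by the same rule. Under it, 6.71% of the genes with at least 10 counts were called in muscle, with 0.701% in oWAT and 0.434% in sWAT. Few enzymes were open to such a call, which needs at least 10 counts in the higher library. None had them in muscle, where HAL stood highest with 3. FAH alone had them in fat (24 in oWAT, 11 in sWAT). For the other enzymes the lack of a call was fixed beforehand and tells nothing. The median log2 ratio of liver to the highest other library, after adding 0.5 counts, was 7.32 over the 8 enzymes and -0.73 over the 4944 genes. With zeros set to 3 counts these medians were 5.35 and -0.74. The enzymes were chosen with earlier results of these data known and are not an independent sample of genes, so these shares describe them and are no test.

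**Figure D2:**
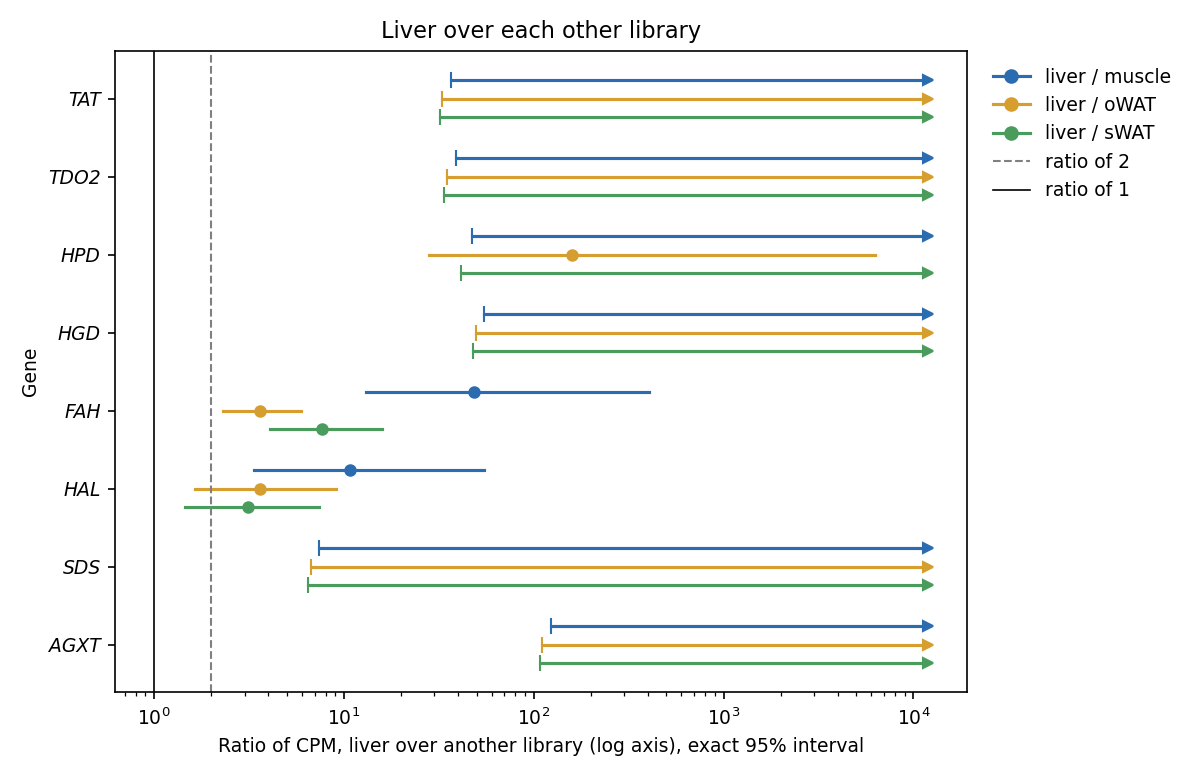
Ratio of CPM in liver over muscle, oWAT or sWAT for each enzyme (horizontal log axis), with exact 95% intervals; an arrow starts at the exact lower bound where the other library had 0 counts, the dashed line marks a ratio of 2 and the solid line a ratio of 1. For HAL the intervals against oWAT and sWAT reach below 2, while those of the other 7 genes lie above it.

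The tyrosine chain was followed step by step. TAT, the transaminase that starts tyrosine breakdown, had 136 counts in liver (311 CPM, 261 to 368) and 0 in muscle, oWAT and sWAT. With 3 counts standing in for 0, the liver level was 45.6-fold that of muscle, 41.1-fold that of oWAT and 39.8-fold that of sWAT. The exact lower bounds were 36.6 over muscle, 33.0 over oWAT and 31.9 over sWAT. The zeros of the other 3 libraries cannot be ordered among themselves.

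HPD, the dioxygenase that makes homogentisate, had 175 counts in liver (399.9 CPM, 343 to 464), 1 in oWAT, 0 in sWAT and 0 in muscle. The ratio of liver to oWAT was 159, with an interval of 28.1 to 6303 that reflects the single oWAT count. That count is within what 0 counts allow, so muscle, oWAT and sWAT cannot be told apart at this depth. HPDL, a paralog of HPD, was not among the names analysed here.

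HGD, which opens the ring of homogentisate, had 203 counts in liver (464 CPM, 402 to 532) and 0 in muscle, oWAT and sWAT. With 3 counts standing in for 0, liver was 59.4-fold above sWAT, with an exact lower bound of 47.8. GSTZ1, the isomerase of the next step, had 70 counts in liver (160.0 CPM), 1 in oWAT, 2 in sWAT and 0 in muscle, and was 30.7-fold higher in liver than in sWAT (8.19 to 259).

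FAH, the hydrolase that ends the chain, differed from the steps before it in having at least 10 counts in both fat libraries. Its muscle counts are within what 0 counts allow. It had 96 counts in liver (219 CPM, 178 to 268), 24 in oWAT (60.5 CPM, 38.8 to 90.0), 11 in sWAT (28.7 CPM, 14.3 to 51.3) and 2 in muscle (4.55 CPM, 0.551 to 16.4). The order of levels was liver, oWAT, sWAT and muscle. Liver was 3.63-fold above oWAT (2.30 to 5.93), 7.66-fold above sWAT (4.09 to 15.9) and 48.3-fold above muscle (13.0 to 404). Liver held 70.1% of the CPM summed over the 4 libraries, whereas it held 99.4% for HPD and all of it for TAT and HGD. The ratio of oWAT to sWAT was 2.11, and its interval of 0.995 to 4.77 includes 1, so these neighbours in the order do not differ beyond counting error. Muscle stood at 0.0752 times oWAT (0.00861 to 0.303) and 0.159 times sWAT (0.0171 to 0.727), both intervals below 1.

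The FAH counts in fat were set beside the markers of other cells in those libraries. Of the 12 hepatocyte markers, 8 were at 0 in oWAT and 11 in sWAT. ALB (serum albumin), the most abundant of them in liver, had 61515 counts there and 1 in oWAT. The others listed in oWAT were APOA1 with 1 count, SERPINA1 with 2 and CYP3A4 with 2. In sWAT the marker listed was SERPINA1, with 1 count. A part of liver material in the FAH counts was not tested. Among markers of cells that fat tissue holds, the 6 mesothelial markers summed to 10 counts in liver, 1548 in oWAT, 0 in sWAT and 0 in muscle. The 8 macrophage markers summed to 234 counts in liver, 612 in oWAT, 459 in sWAT and 181 in muscle. The 6 endothelial markers summed to 124 counts in liver, 854 in oWAT, 1460 in sWAT and 458 in muscle, and the 6 fibroblast markers to 171 in liver, 9553 in oWAT, 31564 in sWAT and 9343 in muscle. The 4 bile duct markers in the files summed to 6 counts in liver, 334 in oWAT, 75 in sWAT and 21 in muscle, and of these KRT19 and SPP1 are also made by mesothelium and macrophages. The 5 lymphocyte markers in the files summed to 2 counts in liver, 10 in oWAT, 5 in sWAT and 1 in muscle. Adipocyte, macrophage, endothelial and fibroblast markers had higher summed CPM in oWAT and sWAT than in liver, and their part in the FAH and HAL counts was not tested.

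TDO2, the dioxygenase that opens the tryptophan ring, had 144 counts in liver (329 CPM, 278 to 387) and 0 in muscle, oWAT and sWAT. With 3 counts standing in for 0, the liver level was 42.1-fold that of sWAT, with an exact lower bound of 33.8. IDO2 and IDO1 encode enzymes that carry out the same reaction as TDO2. IDO2 had 66 counts in liver (151 CPM) and 0 in the other 3 libraries. With 3 counts standing in for 0, liver was 19.3-fold above sWAT, with an exact lower bound of 15.3. IDO1, which is induced by interferon in other cells, was named in addition to the genes that the naming rule picks. It had 1 count in liver, 3 in oWAT, 0 in sWAT and 1 in muscle, too few for a ratio. AFMID, the formamidase that follows TDO2, had 45 counts in liver, 5 in oWAT, 1 in sWAT and 0 in muscle, an 8.16-fold ratio of liver to oWAT (3.25 to 26.3). KYNU, the kynureninase, had 22 counts in liver, 4 in oWAT, 2 in sWAT and 0 in muscle, and its ratio of 4.99 to oWAT (1.69 to 19.9) was not called. ALDH8A1, a dehydrogenase placed further down the kynurenine pathway, had 126 counts in liver, 2 in oWAT, 1 in sWAT and 0 in muscle, 57.1-fold higher in liver than in oWAT (15.5 to 477). TDO2 and IDO2 thus had no count outside liver, while AFMID, KYNU and ALDH8A1 had low counts in both fat libraries. KYAT3, a kynurenine aminotransferase named after its values were seen, had 14 counts in liver, 22 in oWAT, 11 in sWAT and 13 in muscle. Its ratio of liver to oWAT was 0.577 (0.273 to 1.18), an interval that includes 1, and it was 1.16 with libraries scaled by the trimmed mean of M-values method (TMM) and 1.15 with DESeq2's size factors.

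In histidine breakdown the entry enzyme had counts in all libraries, while the enzyme after it did not. HAL, the histidine ammonia-lyase, had 32 counts in liver (73.1 CPM, 50.0 to 103), 8 in oWAT (20.2 CPM, 8.70 to 39.7), 9 in sWAT (23.4 CPM, 10.7 to 44.5) and 3 in muscle (6.82 CPM, 1.41 to 19.9). Liver was 10.7-fold above muscle (3.35 to 54.7), 3.63-fold above oWAT (1.64 to 9.11) and 3.12-fold above sWAT (1.46 to 7.43). All 3 intervals lie above 1, but those against oWAT and sWAT reach below 2, which is why HAL was not called. With TMM scaling the ratio to sWAT was 5.65 and with DESeq2 scaling it was 5.45, and HAL was then called. The CPM intervals of muscle, oWAT and sWAT overlap, and with under 10 counts in each of them no ratio between them was formed. Liver held 59.2% of the summed CPM, the lowest share among the 8 enzymes.

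UROC1, the urocanase that acts after HAL, had 148 counts in liver (338 CPM) and 0 in muscle, oWAT and sWAT. With 3 counts standing in for 0, liver was 43.3-fold above sWAT, with an exact lower bound of 34.8. FTCD, which passes the remaining formimino group to folate, had 139 counts in liver and 0 elsewhere. Its ratio to sWAT, formed in the same way, was 40.6, with an exact lower bound of 32.6. AMDHD1, the hydrolase between UROC1 and FTCD, was named after its values were seen. It had 49 counts in liver, 9 in oWAT, 8 in sWAT and 1 in muscle, a 4.94-fold ratio of liver to oWAT (2.40 to 11.4). HAL and AMDHD1 were therefore listed in both fat libraries, while UROC1 and FTCD had 0 counts there.

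SDS, the serine dehydratase that turns serine into pyruvate, had 29 counts in liver (66.3 CPM, 44.4 to 95.2) and 0 in muscle, oWAT and sWAT. Its liver level was 8.48-fold that of sWAT with 3 counts standing in for 0, with an exact lower bound of 6.47. The low liver count sets this bound, which is the smallest among the 5 enzymes without counts elsewhere. SDSL, its paralog, had 11 counts in liver, 1 in oWAT, 1 in sWAT and 0 in muscle, and was not called, with a ratio of 9.65 to sWAT (1.40 to 415). The sources used here do not say how reads shared by the paralogs were assigned.

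AGXT, the alanine-glyoxylate aminotransferase that keeps glyoxylate from becoming oxalate, had 453 counts in liver (1035 CPM, 942 to 1135) and 0 in muscle, oWAT and sWAT. Its liver level was 152-fold that of muscle, 137-fold that of oWAT and 132-fold that of sWAT, with 3 counts standing in for 0. The exact lower bounds were 123 over muscle, 111 over oWAT and 107 over sWAT. AGXT2, a mitochondrial enzyme that also uses glyoxylate, had 50 counts in liver and 0 elsewhere. Its ratio of liver to sWAT, formed in the same way, was 14.6, with an exact lower bound of 11.5. GRHPR, which reduces glyoxylate, was less restricted. It had 71 counts in liver, 10 in oWAT, 6 in sWAT and 10 in muscle, a 6.44-fold ratio of liver to oWAT (3.30 to 14.0).

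**Figure D3:**
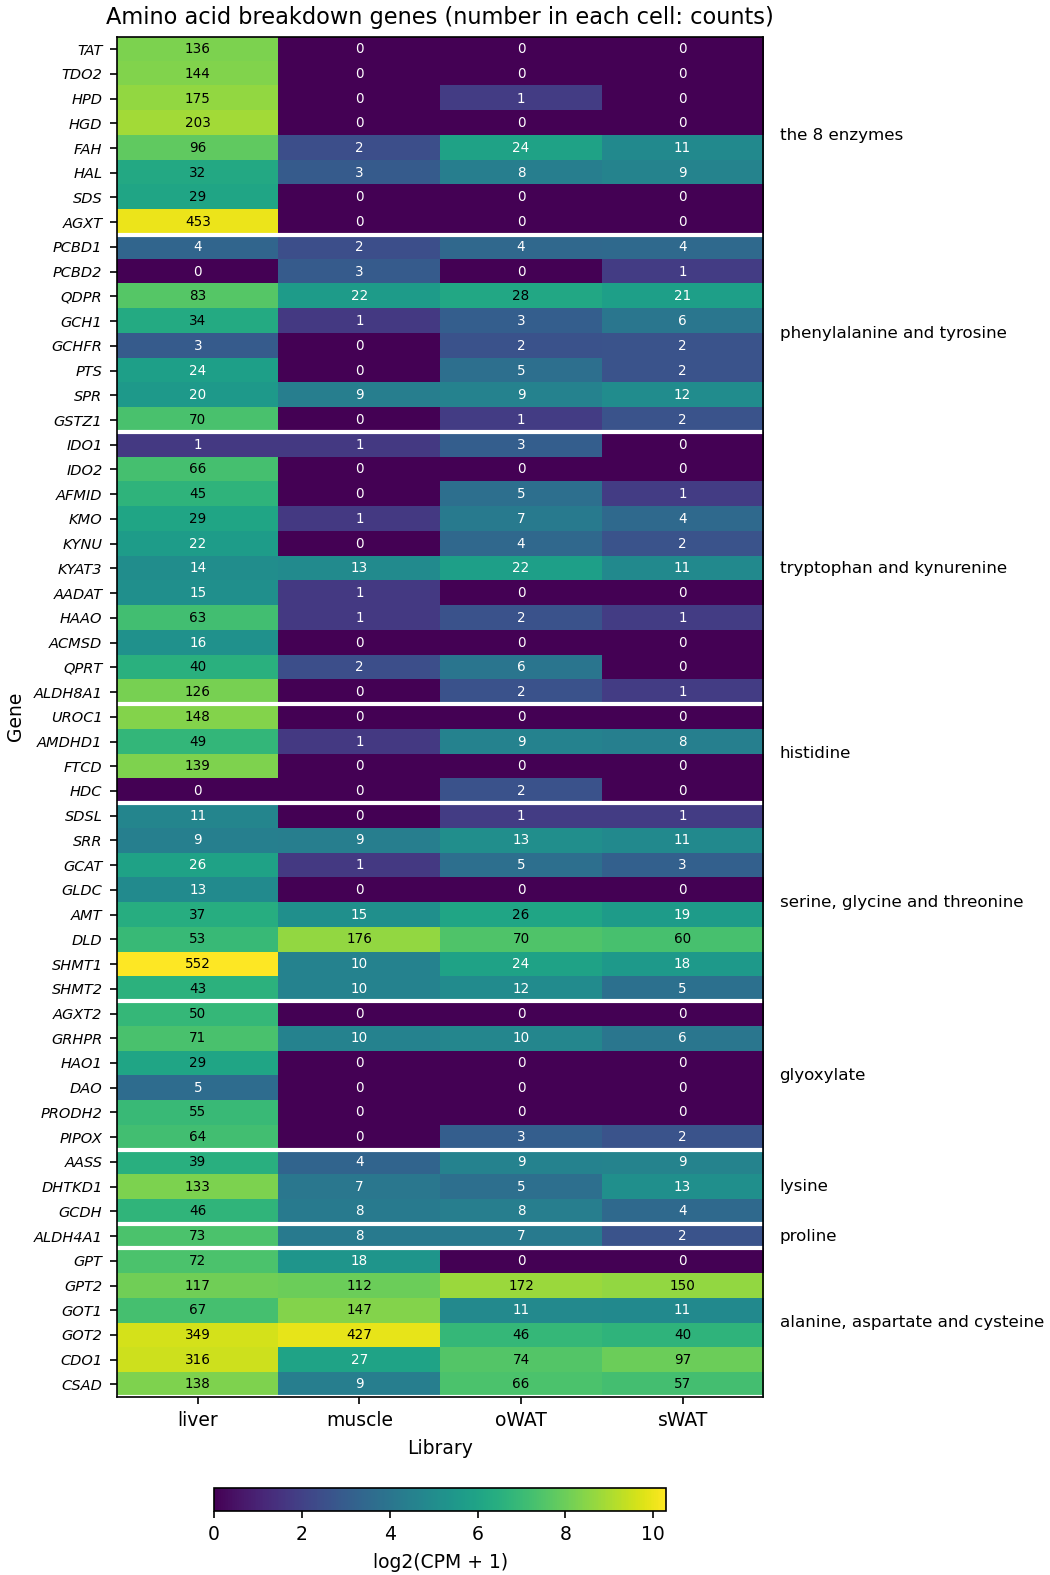
Counts (numbers) and log2(CPM + 1) (colour) of the 8 enzymes and 47 other amino acid breakdown genes in liver, muscle, oWAT and sWAT, grouped by amino acid. The liver column holds counts for all 8 enzymes, and 5 of them have 0 in each of the other 3 columns, while genes such as GOT2 and DLD have counts in all 4.

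The other genes of these routes were taken from a list of 57, of which 48 were found in the files and 9 were not among the names analysed here. Of the 48, 41 had at least 10 liver counts and 25 were called higher in liver, or 61.0% of the 41, beside 10.8% of all genes. Their median log2 ratio of liver to the highest other library was 2.50, against 7.32 for the 8 enzymes. The ratio was above 1 for 36 of the 41 and at or below 1 for 5, which were KYAT3, DLD, GPT2, GOT1 and GOT2. Counts of 0 in each other library were found for 9 of the 41, beside 4.05% of all genes. No gene of the list was called higher in muscle, oWAT or sWAT. Of all genes with at least 10 counts there, 6.71% were called in muscle, 0.701% in oWAT and 0.434% in sWAT. Most genes of the list had under 10 counts in each of these libraries and could not be called there. The absence of calls therefore says little about the list. With TMM or DESeq2 scaling 34 of the 41 were called in liver, among them KYNU and SDSL, while the share of all genes called was 15.6% with TMM and 15.4% with DESeq2 scaling.

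By amino acid, calls were counted among listed genes with at least 10 liver counts, beside 10.8% of all genes with such counts. In the histidine branch, where HAL itself is not counted, 3 of 3 were called, and in the glyoxylate branch 5 of 5. The tryptophan branch had 7 of 10, the phenylalanine and tyrosine branch 3 of 6 and the lysine branch 2 of 3. The branches hold few genes, so their shares were not ranked. ALDH4A1, a dehydrogenase of proline breakdown and the single gene of that branch in the files, was 9.17-fold higher in liver than in muscle (4.42 to 22.0). In the serine, glycine and threonine branch 2 of 7 were called. They were SHMT1, the cytosolic serine hydroxymethyltransferase, and GLDC, the glycine decarboxylase. SHMT1 had 552 counts in liver, 24 in oWAT, 18 in sWAT and 10 in muscle, 20.9-fold over oWAT (13.9 to 32.8). GLDC had 13 counts in liver and 0 elsewhere. With 3 counts standing in for 0 it was 3.80-fold over sWAT, with an exact lower bound of 2.67. For lysine, DHTKD1, a subunit of a 2-oxoadipate dehydrogenase, was 8.98-fold higher in liver than in sWAT (5.07 to 17.3), and GCDH, the glutaryl-CoA dehydrogenase, 5.21-fold higher than in oWAT (2.44 to 12.8). In the glyoxylate branch PRODH2, a hydroxyproline dehydrogenase, had 55 counts in liver and 0 elsewhere. With 3 counts standing in for 0 it was 16.1-fold above sWAT, with an exact lower bound of 12.6.

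In the alanine, aspartate and cysteine branch 2 of 6 were called, beside 10.8% of all genes. The median log2 ratio of liver to the highest other library was 0.32 in this branch. GPT, the alanine transaminase used as a liver test in serum, had 72 counts in liver, 0 in oWAT, 0 in sWAT and 18 in muscle, 4.02-fold higher in liver than in muscle (2.37 to 7.16). CDO1, the cysteine dioxygenase, was 2.86-fold higher than in sWAT (2.27 to 3.63). The remaining genes of this paragraph were named after their values were seen. GOT1, the cytosolic aspartate transaminase, stood at 0.458 times its muscle level in liver (0.338 to 0.616). GOT2, its mitochondrial form, stood at 0.822 times its muscle level (0.711 to 0.949); TMM scaling turned this to 1.12 and DESeq2 scaling to 1.11. GPT2, the mitochondrial alanine transaminase, stood at 0.617 times its oWAT level (0.483 to 0.785); TMM scaling turned this to 1.24 and DESeq2 scaling to 1.22. DLD, a subunit shared by the glycine cleavage system and the large oxo-acid dehydrogenases, stood at 0.303 times its muscle level (0.218 to 0.414). None of the 8 enzymes was below another library in this way.

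**Figure D4:**
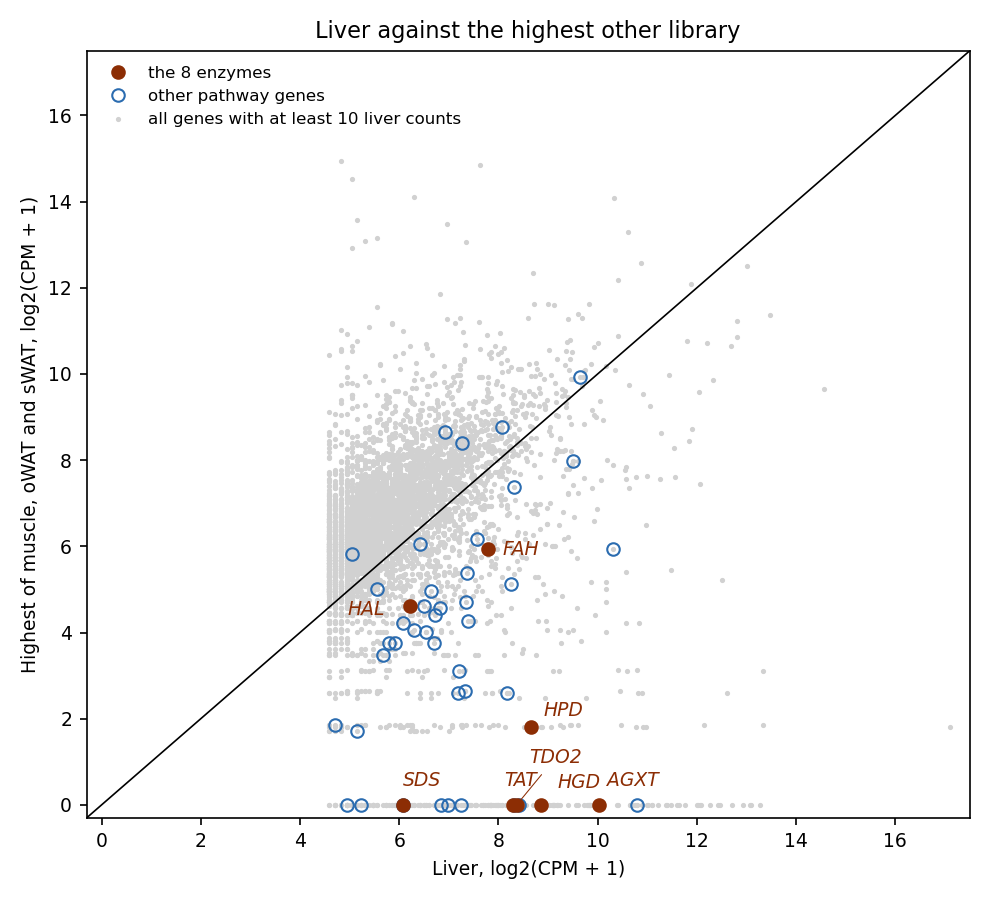
Level in liver (horizontal) against the highest level among muscle, oWAT and sWAT (vertical), both as log2(CPM + 1), for the 8 enzymes (filled), the other pathway genes (open) and all 4944 genes with at least 10 liver counts (grey); the line marks equal levels. All 8 enzymes lie below the line, 5 of them at 0 on the vertical axis, with FAH and HAL nearest to the line.

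Genes with the most similar profile were found by the Euclidean distance between log2(CPM + 1) values over the 4 libraries, among 12266 genes with a symbol in the RefSeq table. Where a gene has no count outside liver, this distance depends on the liver level alone. Nearest to TAT were FTCD (distance 0.031), F13B and TDO2, and nearest to TDO2 were UROC1 (0.039), FTCD and FETUB. Nearest to HGD were ACSM1 and CYP2A24 (0.0071 each) and GLS2, nearest to SDS were HAO1 (the same counts in every library, distance 0) and LECT2, and nearest to AGXT were ADH6 (0.035) and ARG1. Each of these genes also had 0 counts in muscle, oWAT and sWAT. HPD, with its single oWAT count, was nearest to CYP3A7 (0.049), GYS2 and OGDHL, each of which had 1 oWAT count as well. Counts of CYP3A7 and CYP2A24 are uncertain, since close copies of these genes exist and the sources used here do not say how their shared reads were handled.

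FAH and HAL had counts in all 4 libraries, so their distances do not rest on shared zeros. The gene nearest to FAH was CYP39A1 at a distance of 0.997, with 93 counts in liver, 31 in oWAT, 14 in sWAT and 4 in muscle, followed by TTPAL (1.04) and ACAA1 (1.05). Nearest to HAL were RAPGEF4 and SFXN2, at a distance of 0.395 each, with 28 counts in liver, 8 in oWAT, 7 in sWAT and 3 in muscle, and HYKK (0.414). None of the 6 is among the 8 enzymes or the listed pathway genes, but the lists do not hold every gene of amino acid breakdown. These distances rest on few counts outside liver and describe the 4 libraries.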

How the data were processed

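RNA of 5 monkeys per tissue was pooled into 1 library each and sequenced on the PacBio Sequel II, per the labels' protocols; minimap2 2.24 is named in the submitters' processing notes. The deposited files hold raw counts per gene, not normalized by the authors. The sources used here do not give the read filters, the build, the annotation, strand use or how reads were assigned to genes. Transcript length was not used. Unlisted genes were taken as 0. An entry that names no gene, 14.3% to 19.5% of each file, was left out of the totals.

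Ratios of CPM carry exact 95% Clopper-Pearson intervals from the binomial share of the 2 counts (Python 3.11.15, SciPy 1.17.1). The ratio printed is to the highest other library; against 0 counts, 3 counts per library were used. The rule was run on simulated counts that held counting error only and were scaled by unchanged genes. Such counts do not bear on variation between animals or libraries, or on the choice of scaling. Scaling factors came from edgeR 4.0.16 (TMM) and DESeq2 1.42.0, used for nothing else. The members, gene lists and rules were chosen with earlier results of these data known. Besides the 8 enzymes, the text names the 2 genes per branch with the largest lower bound, neighbours and paralogs in the pathway, the 3 nearest profiles per enzyme and leading markers; exceptions are said beside their values. Values of some genes that this rule covers are not reported here, though they are included in counts over lists. Sequences were not used here.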

Additional observations from a re-analysis of the deposited data

How the results depend on the processing

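With 1 library per tissue, counting error is the only error that can be given, and genes with few counts outside liver limit most ratios. The number of the 8 enzymes called higher in liver was 7 under scaling to the library total and 6 to 8 over 9 alternatives. HAL was added with TMM scaling, with DESeq2 scaling and with a bound of 1, and FAH was lost with a bound of 4. Of all genes reaching the minimum count, 10.8% were called with library totals. Over the alternatives this share ran from 4.89% with a minimum of 1 count to 16.9% with a bound of 1. TMM scaling multiplies ratios of liver to muscle by 1.36, to oWAT by 2.01 and to sWAT by 1.81, and DESeq2 scaling those to muscle by 1.36, to oWAT by 1.99 and to sWAT by 1.75. The all-gene median log2 ratio, -0.73 with library totals, was 0.047 with TMM and 0.025 with DESeq2 scaling, and the enzymes' median, 7.32 with library totals, was 8.14 with TMM and 8.13 with DESeq2 scaling. The ratio of liver to oWAT for FAH was 7.28 with TMM and 7.20 with DESeq2 scaling. With a bound of 4, 14 of the 41 other pathway genes (34.1%) and 355 of the 4944 genes (7.18%) were called. With a bound of 1, 838 of the 4944 genes were called, and the bound itself sets these counts. The enzymes' median was 6.61 with 1 count added and 9.11 with 0.1 counts added. FAH between muscle, oWAT and sWAT kept its direction under the 4 other scalings. The ratio of oWAT to sWAT was 1.86 to 2.04, and its interval included 1 under each of them, so this direction is not beyond counting error. No paired analysis was possible because each tissue has 1 library and no replicate.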
